A study of Mus musculus with 20 samples.

Results

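Livers of fasted Mcl1(L-/-) mice were compared with livers of fasted WT mice, 5 arrays against 5, out of the 20 arrays of a design that crosses genotype with feeding. The 10 arrays were chosen by their labels, and every one of the 22206 probe sets was tested. Mice of both groups were kept singly in wire-bottom cages for 48 h with water and no food. The protocol describes Mcl1(F/F) mice that received AAV-LP1-Cre, a viral vector in which a liver promoter drives Cre, to delete Mcl1 in liver. The same text stands on the WT samples, so the labels do not say what WT mice carried or received. They also give no strain, sex or age. Each array held total RNA of a whole liver and was described as a biological replicate. The other 10 arrays, from fed Mcl1(L-/-) and fed WT mice with free access to food, serve here as the comparison for the genotype difference. The signals are log2 values after robust multi-array averaging (RMA), and a difference of 1 is 2-fold. Differences below are fasted Mcl1(L-/-) minus fasted WT unless another pair is named. Standard errors (SE) come from a model fitted across all probe sets with n = 5 per group. The model pools the spread of all 4 groups, fed arrays included. An SE can therefore understate the spread of a gene that varies more in fasted Mcl1(L-/-) livers. The median SD was 0.211 in fasted Mcl1(L-/-), 0.202 in fasted WT, 0.186 in fed WT and 0.190 in fed Mcl1(L-/-). A probe set was called at a Benjamini-Hochberg adjusted p under 0.05.

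MCL-1 is a survival member of the BCL2 family. It sits at the outer mitochondrial membrane, where it binds pro-apoptotic relatives such as BAK1 and the BH3-only proteins, and it has also been linked to mitochondrial fatty acid oxidation. In a fasted liver, fatty acids released by adipose tissue are oxidised or stored in lipid droplets, ketone bodies and glucose are made for other organs, and the synthesis of fatty acids and sterols is turned down. The nuclear receptor PPAR alpha drives much of the oxidation programme, and SREBP2 drives sterol synthesis.

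Mcl1 itself was lower on all Mcl1(L-/-) arrays. The 5 fasted WT arrays read 7.25, 7.16, 7.25, 7.41 and 7.33, and the 5 fasted Mcl1(L-/-) arrays read 6.18, 6.19, 5.88, 5.94 and 6.50. The groups did not overlap, and the difference was -1.14 (SE 0.12, adjusted p = 4.47e-06), which left 45.4% of the WT signal. The array reads whole-liver RNA, and the labels do not place its probes relative to the deleted part. The value is therefore no measure of how many hepatocytes lost the gene. Bcl2l1, which encodes the survival protein BCL-XL, rose. It read 5.54, 5.01, 4.23, 5.41 and 5.61 in WT and 6.85, 6.68, 5.58, 6.14 and 6.22 in Mcl1(L-/-), a difference of 1.13 (SE 0.22, adjusted p = 0.00524). Replicate 3 of Mcl1(L-/-) lay within the WT range, and the other Mcl1(L-/-) arrays lay above it. The remaining survival members showed differences between -0.13 for Bcl2a1a and 0.19 for Bcl2a1b, and none was called. Of 10 measured death effectors and BH3-only members, 0 were called by limma or by an ordinary linear model, against 4.99% of all probe sets, and 1 had an unadjusted p under 0.05. The largest difference among these was that of Bcl2l11, which encodes BIM, at 0.51 (SE 0.22, adjusted p = 0.201). Its WT arrays read 4.57, 4.31, 4.41, 5.0 and 4.20 and its Mcl1(L-/-) arrays 5.56, 5.35, 4.64, 4.24 and 5.25, with replicates 1, 2 and 5 above every WT array. Among 15 caspase and apoptosome genes 0 were called by limma or the ordinary model, and 1 had an unadjusted p under 0.05. Of all 22206 probe sets, 4065 had an unadjusted p under 0.05 in the limma test.

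In the fasted state 1109 probe sets were called, or 4.99% of those tested. Of these, 738 (3.32% of all) were higher and 371 (1.67%) lower in Mcl1(L-/-), so that 66.5% of the calls were rises. That share rested in part on scaling, with 55.0% rises after quantile normalisation and 76.4% after centring each array on its median. A change of at least 2-fold was seen for 158 of the calls, 94 higher and 64 lower. With only the 10 fasted arrays in the model, 399 probe sets were called. The 2 groups did not overlap for 866 probe sets (3.90% of all), 565 higher and 301 lower. Over all probe sets the median difference was -0.02. In whole-liver RNA, fewer cells of a type and less RNA per cell cannot be told apart.

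The fasted Mcl1(L-/-) livers differed among themselves. On the first principal component of the 10 fasted arrays, which held 30.8% of the variance, WT arrays scored from -22.5 to -13.9. Replicates 1, 2 and 5 of Mcl1(L-/-) scored 27.5, 37.1 and 29.9, replicate 4 scored 8.35 and replicate 3 scored -6.35. Replicate 3 thus lay nearest to WT. It fell within the WT range for 433 of the 1109 called probe sets, against 34 to 135 for the other Mcl1(L-/-) arrays. Without replicate 3 the calls numbered 1707, and without replicates 3 and 4 together, an alternative chosen after the data were seen, 1989. Leaving out Mcl1(L-/-) replicate 1, 2 or 5 gave 647, 497 and 646 calls, and leaving out WT replicate 4 gave 722. Mcl1 did not follow this order, since replicate 3 had the lowest Mcl1 signal (5.88) and replicate 5 the highest (6.50). No label sets these arrays apart, and what separates them was not tested.

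Leading genes were ranked among called genes whose groups did not overlap, leaving out predicted gene models such as Gm4788 (5.02, described below) and Gm3893 (-2.34) and probe sets without a symbol. The largest rises included Asic5, which encodes an ion channel, and Lepr, the leptin receptor. Asic5 read 3.63, 3.36, 3.91, 4.14 and 4.0 in WT and 7.11, 7.42, 7.59, 6.96 and 7.69 in Mcl1(L-/-), a difference of 3.55 (SE 0.21, adjusted p = 4.69e-10). The lowest Mcl1(L-/-) array lay far above the highest WT array. Lepr read 2.79, 2.95, 3.38, 4.32 and 3.73 in WT and 7.93, 9.19, 4.69, 4.33 and 8.68 in Mcl1(L-/-). The difference was 3.53 (SE 0.66, adjusted p = 0.0035), with replicates 1, 2 and 5 high and replicates 3 and 4 just above the highest WT array. The SD of Lepr was 2.29 in Mcl1(L-/-) and 0.62 in WT, so the pooled SE understates its spread. Cidec, which encodes a protein that enlarges lipid droplets, rose by 2.80 (SE 0.35, adjusted p = 8.44e-05). Its WT arrays read 4.94, 4.40, 5.39, 3.61 and 6.19 and its Mcl1(L-/-) arrays 7.65, 8.84, 6.64, 7.93 and 7.46, all of the latter above WT.

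Further genes in this group spanned several functions. Tubb2a, a beta-tubulin, rose by 2.53 (SE 0.34, adjusted p = 0.000176), and Rab30, a small GTPase of the Golgi, by 2.25 (SE 0.38, adjusted p = 0.00174). Pdk4, the kinase that shuts off pyruvate dehydrogenase, read 4.93, 4.80, 5.39, 5.13 and 5.47 in WT and 7.97, 8.93, 6.03, 6.18 and 7.54 in Mcl1(L-/-), a difference of 2.19 (SE 0.41, adjusted p = 0.0035). The pattern of Lepr recurred, with replicates 1, 2 and 5 highest. Cyp2b10, a cytochrome P450 induced through the receptor CAR, rose by 2.38 (SE 0.45, adjusted p = 0.00384), and Nlrp12, an NLR-family regulator of inflammatory signalling, by 2.02 (SE 0.23, adjusted p = 1.86e-05). Ddit4, an inhibitor of mTORC1, rose by 1.96 (SE 0.42, adjusted p = 0.00873). Ly6d (1.98), Ifrd1 (1.82) and the linker histone gene H1f2 (1.69) completed the 12 largest of that ranking. Outside that rule, and named after their values were seen, Tnfrsf12a, the receptor of the cytokine TWEAK, rose by 1.90 (SE 0.34, adjusted p = 0.00278) and Myc by 1.97 (SE 0.51, adjusted p = 0.0276).

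Among falls, Ctse, which encodes the aspartic protease cathepsin E, came first at -4.30 (SE 0.46, adjusted p = 7.43e-06). Car3, a carbonic anhydrase abundant in male rodent liver, read 8.74, 8.6, 7.71, 6.63 and 6.94 in WT and 5.89, 3.29, 6.41, 5.01 and 4.60 in Mcl1(L-/-), a difference of -2.68 (SE 0.42, adjusted p = 0.00105). Sucnr1, the succinate receptor, read 7.84, 7.83, 7.60, 6.72 and 7.63 in WT and 4.63, 4.03, 6.32, 4.54 and 4.78 in Mcl1(L-/-), or -2.67 (SE 0.31, adjusted p = 2.57e-05). In both genes replicate 3 was the Mcl1(L-/-) array nearest to WT, and the groups did not overlap. Inmt, an indole and thioether methyltransferase, fell by 2.43 (SE 0.26, adjusted p = 7.43e-06). The steroid dehydrogenase genes Hsd3b3 and Hsd3b2 differed by -2.36 (SE 0.24, adjusted p = 4.39e-06) and -2.03 (SE 0.24, adjusted p = 3.26e-05). As close relatives they can share probes, so their separate sizes are uncertain. Slc22a28 (-1.71), Car1 (-1.70), Pm20d1 (-1.64), Mme (-1.59), Apol9a (-1.14) and Mcl1 made up the rest. Leaving out replicate 3 moved Sucnr1 to -3.03 and Car3 to -3.02, and none of the 24 leading genes lost its call under any of the alternatives tried.

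**Figure D1:**
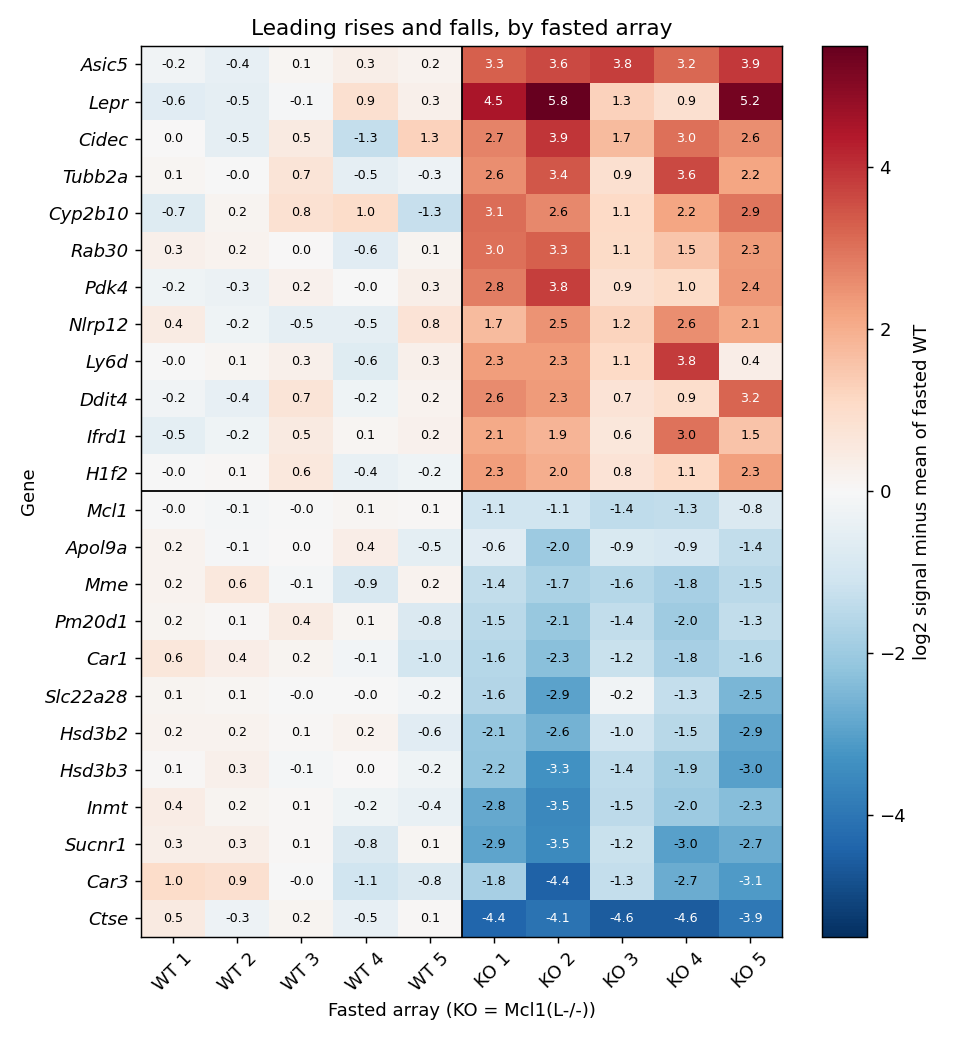
Heat map of the 12 largest rises and the 12 largest falls, predicted gene models and probe sets without a symbol left out (rows), on the 10 fasted arrays (columns; KO stands for Mcl1(L-/-)), as log2 signal minus the mean of the 5 fasted WT arrays. Asic5 and Ctse are near uniform over the Mcl1(L-/-) arrays, whereas Lepr, with signals from 4.33 to 9.19, varies widely, and replicate 3 is pale in many rows.

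For 3 probe sets the difference came from fasted WT livers that stood apart from every other group. Ctse read 7.90, 7.12, 7.55, 6.93 and 7.44 in fasted WT and 3.02, 3.33, 2.81, 2.80 and 3.47 in fasted Mcl1(L-/-). In the fed state it read 2.76, 2.33, 3.16, 2.91 and 2.30 in Mcl1(L-/-) and 6.54, 2.70, 3.18, 2.85 and 3.25 in WT, where replicate 1 alone was high. Gm4788, a predicted gene model, was the mirror image, at 4.0, 2.99, 3.63, 4.11 and 4.78 in fasted WT and 9.05, 8.33, 9.33, 9.10 and 8.83 in fasted Mcl1(L-/-). Its fed WT arrays read 6.0, 9.65, 9.62, 9.65 and 9.74, again with replicate 1 apart, and its fed Mcl1(L-/-) arrays 9.51, 9.67, 9.48, 9.61 and 9.45. A probe set without a gene symbol, TC0M00000009.mm.2, read 9.27, 9.47, 9.15, 9.43 and 9.65 in fasted WT and 11.37, 11.58, 11.63, 11.56 and 11.39 in fasted Mcl1(L-/-). Fed WT replicate 1 was once more the odd array, at 10.55 against 11.66 to 11.71 for the other fed WT arrays. Leaving that array aside, these were the only probe sets in which fasted WT lay over 1 log2 unit from all other arrays, a criterion set after the values were seen. The labels do not describe the breeding of the groups, and a part of genetic background in these values was not tested. The fasted genotype differences of Ctse, Gm4788 (5.02 (SE 0.48, adjusted p = 2.78e-06)) and the unnamed probe set (2.11 (SE 0.16, adjusted p = 6.25e-08)) therefore rest on the control group. Pm20d1 lies 3 measured genes from Ctse on chromosome 1.

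Chromosome 3, which carries Mcl1, held 7 other leading genes: Asic5, Sucnr1, Car1, Car3, Hsd3b2, Hsd3b3 and Mme. In all, 56 of its 923 tested probe sets with a gene symbol (6.07%) were called, against 4.99% over all probe sets. Chromosomes 15 (7.41%), 8 (6.86%), 14 (6.39%) and 1 (6.15%) had larger shares. Of the 56 on chromosome 3, 15 differed by 2-fold or more, which is 10.5% of the 143 such calls with a known chromosome. Chromosome 3 held 923 of the 19572 probe sets with 1 gene symbol. No other chromosome had as many calls of that size, and chromosome 1 came next with 11. Over all 22206 probe sets 158 were calls of that size. In the order of measured genes, Hsd3b2 lay 58 and Hsd3b3 59 genes from Mcl1, Asic5 251, Mme 314, Sucnr1 321 and Car1 491. Mme, which encodes the peptidase neprilysin, and Asic5 differed by genotype in fed livers too, by -3.43 (adjusted p = 9.82e-06) and 2.73 (adjusted p = 1.11e-07). Chromosome 3 also held 5 of the 8 probe sets called in the fed state. Whether alleles carried along with the targeted locus have a part in these genes was not tested.

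Several genes of fatty acid use rose. Among 26 measured PPAR alpha targets 10 were called higher and 0 lower (38.5%, against 4.99% over all probe sets), with a median difference of 0.51. Besides Cidec and Pdk4 these were Fabp4, a fatty acid carrier (1.46), the acyl-CoA thioesterase genes Acot1 (1.36) and Acot2 (1.13), the omega-hydroxylase gene Cyp4a31 (1.3), the droplet coat gene Plin2 (1.17), Ehhadh of peroxisomal beta-oxidation (1.17), Cpt1b of the carnitine shuttle (0.71) and the peroxisome gene Pex11a (0.68). Ehhadh read 10.34, 9.94, 10.17, 9.20 and 10.16 in WT and 11.14, 11.20, 10.75, 11.12 and 11.41 in Mcl1(L-/-). Its groups did not overlap, WT replicate 4 was the lowest array, and the difference was 1.17 (SE 0.19, adjusted p = 0.00164). Plin2 read 8.91, 8.56, 8.92, 7.67 and 9.01 in WT and 9.66, 10.11, 9.27, 10.29 and 9.58 in Mcl1(L-/-), or 1.17 (SE 0.21, adjusted p = 0.00277). Acot1, Fabp4, Cyp4a31 and Pex11a each lost their call under at least 1 alternative. In WT livers fasting itself moved the list by a median of 0.47, and in Mcl1(L-/-) livers by 1.21. In the fed state the genotype median was -0.10. Leaving out 1 fasted array at a time gave 6 to 11 calls in the list, fewest without Mcl1(L-/-) replicate 2.

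Related lists overlap that one in part. In the lipid droplet and lipolysis list 4 of 22 were called (18.2%, against 4.99% of all probe sets), all higher. They were Cidec, Plin2, Plin5 (0.84) and Pnpla2 (0.79), which encodes the lipase ATGL. Peroxisomal beta-oxidation had 4 higher (Ehhadh, Pex11a, Acot8 and Scp2) and 1 lower (Pecr, -0.81) of 20 (25%). In the list of the carnitine shuttle and mitochondrial beta-oxidation, which does not hold Cpt1b, 2 of 18 genes rose (11.1%). They were Hadha (0.43) and Hadhb (0.44), which form the mitochondrial trifunctional protein. Both had WT replicate 4 as the lowest array, and neither was called without that array or without Mcl1(L-/-) replicate 2. Peroxisomal calls numbered 2 without WT replicate 4 or Mcl1(L-/-) replicate 1. Of 20 lipogenic genes 1 fell (5%, against 4.99% of all probe sets), Acly (-0.58 (SE 0.16, adjusted p = 0.0327)), which supplies cytosolic acetyl-CoA. Acly lost its call under 11 of 30 alternatives. Ketone and monocarboxylate carriers Slc16a6 (1.59) and Slc16a1 (0.71) were the 2 called of 8 ketogenesis genes (25%). Slc16a6 read 5.48, 5.52, 2.53, 2.46 and 4.59 in Mcl1(L-/-) against 2.57, 2.27, 2.87, 2.18 and 2.74 in WT, so replicates 3 and 4 lay within the WT range.

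Several enzymes of sterol synthesis fell. Of 16 measured enzymes of cholesterol synthesis 7 were called lower and 0 higher (43.8%, against 4.99% of all probe sets). Of the 16 differences 15 were below 0, with a median of -0.89. Sqle, squalene epoxidase, differed most. Its WT arrays read 5.72, 4.55, 4.66, 3.26 and 5.69 and its Mcl1(L-/-) arrays 2.83, 2.89, 4.14, 2.71 and 2.51, a difference of -1.76 (SE 0.37, adjusted p = 0.00734). WT replicate 4 lay among the Mcl1(L-/-) arrays, and Mcl1(L-/-) replicate 3 lay highest in its group. Fdft1, squalene synthase, separated the groups fully, at 8.12, 8.01, 8.18, 7.65 and 8.07 in WT and 6.57, 6.99, 7.39, 6.88 and 6.99 in Mcl1(L-/-), or -1.05 (SE 0.15, adjusted p = 0.000312). The others were Idi1 (-1.36), Cyp51 (-1.09), Msmo1 (-1.06), Fdps (-0.99) and Sc5d (-0.83). Nsdhl (-1.21, adjusted p = 0.0521) and Hmgcs1 (-0.95, adjusted p = 0.0608) had differences of like size and were not called.

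Of 16 genes of sterol sensing, uptake and efflux 3 fell and 1 rose (25%, against 4.99% of all probe sets), and the median difference was 0.03. Srebf2, which encodes SREBP2, was -0.62 (adjusted p = 0.0203), and the SREBP targets Insig1 (-1.01) and Stard4 (-1.10) also fell. Insig2, whose product retains SREBP in the endoplasmic reticulum, rose by 0.96 (SE 0.24, adjusted p = 0.0215). Without Mcl1(L-/-) replicate 1, 2 or 5 that list had 1 call. Array by array, the median of the synthesis list against the WT mean was -1.21, -0.73, -0.37, -0.67 and -0.99 on the Mcl1(L-/-) arrays. On the WT arrays it was 0.21, 0.05, 0.10, -0.88 and 0.45, so WT replicate 4 was as low as Mcl1(L-/-). Leaving out 1 fasted array at a time gave 4 to 10 calls in the list, fewest without Mcl1(L-/-) replicate 1 or 5 and 10 without Mcl1(L-/-) replicate 3. In fed livers the genotype median of the list was 0.20, and the median fasting effect in WT was -1.07.

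**Figure D2:**
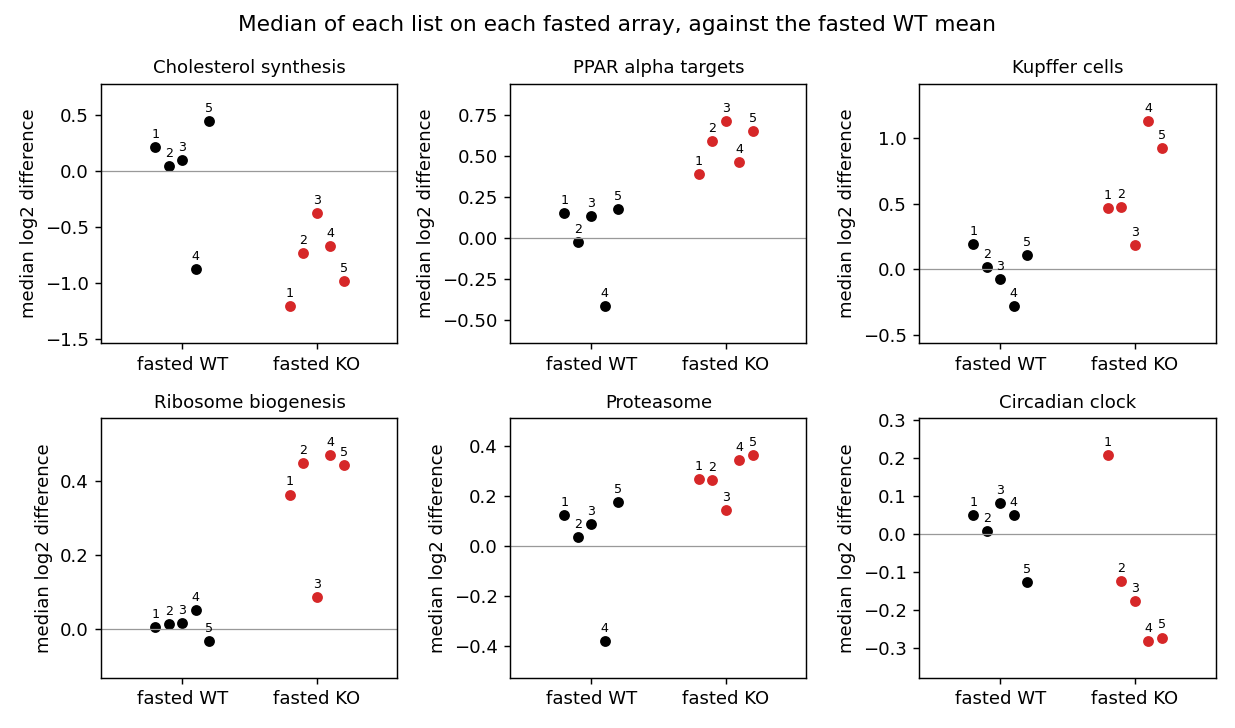
Median difference of 6 gene lists on each fasted array from the fasted WT mean (vertical axis, log2; numbers are replicates, KO stands for Mcl1(L-/-)). The PPAR alpha list is higher on all 5 Mcl1(L-/-) arrays than on any WT array, whereas for cholesterol synthesis WT replicate 4 (-0.88) lies among the Mcl1(L-/-) arrays and for ribosome biogenesis Mcl1(L-/-) replicate 3 (0.09) lies near WT.

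Promoters of some of these enzymes are shown because the genes moved together. NF-Y, which binds CCAAT, is a known partner of SREBP2. In windows of 300 bases around the gene start (RefSeq, GRCm38.p6), CCAAT on either strand was present in 13 of 13 cholesterol synthesis genes that had a promoter in the table, in 42.2% of 15691 measured genes and in 37.4% of all promoters. CCAAT was also present in 13 of 16 circadian clock genes (81.2%), 10 of 18 PPAR alpha targets (55.6%) and 53.6% of 278 genes called lower. In the ribosome biogenesis, proteasome and mitochondrial ribosome lists the shares were 36%, 37.9% and 42.4%, and 43.4% for genes called higher. It was one of 16 motifs searched, and those described were chosen after the shares were seen. The called enzymes Sqle, Fdft1 and Fdps had no promoter in the table and are not among the 13. Idi1, Cyp51, Msmo1 and Sc5d were the called genes among the 13, and the others there were not called. The mean GC content was 60.8% for the 13 enzymes and 56.4% for all measured genes. Below are the 250 bases before the start, 5′ to 3′ along the gene, with CCAAT or its reverse complement ATTGG in capitals. Idi1 is at chr13:8885356-8885605 (+ strand), Cyp51 at chr5:4104698-4104947 (- strand) and Msmo1 at chr8:64733579-64733828 (- strand).
Idi1: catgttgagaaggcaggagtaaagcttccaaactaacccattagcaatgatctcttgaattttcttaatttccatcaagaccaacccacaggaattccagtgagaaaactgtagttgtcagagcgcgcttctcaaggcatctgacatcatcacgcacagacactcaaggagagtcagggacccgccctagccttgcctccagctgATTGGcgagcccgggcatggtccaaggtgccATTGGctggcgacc
Cyp51: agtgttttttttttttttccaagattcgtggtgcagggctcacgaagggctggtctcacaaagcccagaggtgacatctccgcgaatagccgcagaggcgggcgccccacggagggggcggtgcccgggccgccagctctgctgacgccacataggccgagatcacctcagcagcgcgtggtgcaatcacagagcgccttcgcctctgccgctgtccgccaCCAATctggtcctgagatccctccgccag
Msmo1: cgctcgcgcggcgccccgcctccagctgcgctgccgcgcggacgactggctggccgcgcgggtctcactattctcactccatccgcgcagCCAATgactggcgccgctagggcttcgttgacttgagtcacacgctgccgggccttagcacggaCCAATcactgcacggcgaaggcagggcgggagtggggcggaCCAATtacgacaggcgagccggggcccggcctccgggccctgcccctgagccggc
Idi1 held 2 matches, first bases at -45 and -14, Cyp51 1 at -29, and Msmo1 3 at -160, -96 and -55. A match of letters is no evidence of binding.

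Some genes that build ribosomes or degrade proteins rose, in numbers that depended on single arrays. In the ribosome biogenesis list 7 of 30 were called, all higher (23.3%, against 4.99% of all probe sets). There 28 of 30 differences were above 0, with a median of 0.34. Nop58, a core protein of box C/D small nucleolar particles, read 4.47, 4.71, 4.89, 4.88 and 4.83 in WT and 5.91, 5.91, 5.42, 6.50 and 5.92 in Mcl1(L-/-). All Mcl1(L-/-) arrays exceeded WT, by 1.18 (SE 0.18, adjusted p = 0.000792) on average. Ddx21, a nucleolar RNA helicase, rose by 0.93 (SE 0.14, adjusted p = 0.000917), and Heatr1 (0.76) and Wdr43 (0.70), of the small-subunit processome, rose as well. By array the list median was 0.36, 0.45, 0.09, 0.47 and 0.44 in Mcl1(L-/-), with replicate 3 low. Leaving out 1 fasted array at a time gave 4 to 12 calls, 4 without Mcl1(L-/-) replicate 2 or 5 and 12 without replicate 3. Of the 42 cytosolic ribosomal protein genes 0 were called by limma or the ordinary model. Their median was 0.13, and 11 of the 42 had an unadjusted p under 0.05, against 4065 of all 22206 probe sets. The largest there was Rplp0 at 0.43 (SE 0.13, adjusted p = 0.0617).

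Proteasome genes gave 6 calls of 35, all higher (17.1%, against 4.99% of all probe sets), with a median of 0.30. Psmd4, the ubiquitin receptor also called RPN10, read 8.18, 8.11, 8.04, 7.42 and 7.97 in WT and 8.69, 8.70, 8.18, 8.34 and 8.89 in Mcl1(L-/-), or 0.62 (SE 0.15, adjusted p = 0.0197). WT replicate 4 was the lowest WT array here, as it was for the whole list (-0.38). Leaving out 1 fasted array at a time gave 1 to 9 proteasome calls, fewest without Mcl1(L-/-) replicate 1 or 2 or WT replicate 4. Psmd8 (0.59) kept its call under every alternative tried, and Psmd4 did not. Aminoacyl-tRNA synthetases gave 4 calls of 26, all higher, among them Sars (0.55) and Yars2 (0.50), or 15.4%. Sars kept its call under every alternative tried and Yars2 lost it under 19 of 30, and the list had 1 call without Mcl1(L-/-) replicate 1 or 4 or WT replicate 1.

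Some mitochondrial genes rose, mostly by small amounts. Timm17a, a subunit of the inner membrane translocase named after its values were seen, had one of the smallest p-values, at 6.39, 6.33, 6.70, 6.46 and 6.16 in WT and 7.58, 7.74, 7.33, 7.71 and 7.41 in Mcl1(L-/-), or 1.15 (SE 0.12, adjusted p = 6.35e-06). The protease and chaperone list had 4 of 22 higher (18.2%, against 4.99% of all probe sets), including Clpx (0.67) and Yme1l1 (0.41). Its count fell to 1 without Mcl1(L-/-) replicate 1, 2 or 5 or WT replicate 4. The citric acid cycle had 4 of 19 higher (21.1%), including Cs, citrate synthase (0.65), and Idh3a (0.60), and 1 without Mcl1(L-/-) replicate 1. The mitochondrial ribosome had 8 higher and 2 lower (Mrpl49 -0.68, Mrpl34 -0.63) of 67 (14.9%), and 5 calls without Mcl1(L-/-) replicate 2 or WT replicate 5. Respiratory complex I gave 1 call of 36 (Ndufs4, 0.36) and complexes II to V 1 of 40 (Cycs, cytochrome c, 0.53), shares of 2.78% and 2.50%, which lie under the 4.99% of all probe sets. Bnip3l, a mitophagy receptor of the BCL2 superfamily, rose by 0.67 (SE 0.11, adjusted p = 0.00167).

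The ETS-type motif CCGGAAG is shown because genes called higher held it more often. It was present in 25.1% of 546 genes called higher with a promoter in the table, in 9.35% of 278 called lower and in 13.2% of measured genes, or 8.86% of all promoters. The proteasome list held it in 10 of 29, ribosome biogenesis in 8 of 25 and the mitochondrial ribosome in 21 of 59. The mean GC content was 61.0% for genes called higher and 57.1% for those called lower, so base composition differed as well, and its part was not tested. The 250 bases before the start of Psmd4 (GRCm38.p6, chr3:95042615-95042864, - strand) have the match, on either strand, in capitals at -125.
Psmd4: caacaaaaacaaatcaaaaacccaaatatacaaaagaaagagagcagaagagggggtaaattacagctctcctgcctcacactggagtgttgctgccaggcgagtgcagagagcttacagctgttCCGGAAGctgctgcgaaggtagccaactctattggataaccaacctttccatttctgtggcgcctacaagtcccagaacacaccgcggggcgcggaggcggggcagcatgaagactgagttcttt

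Some stress genes rose. Of 27 integrated stress response genes 5 rose (Ddit4, Atf4, Psat1, Eif4ebp1 and Slc3a2) and 0 fell (18.5%), with a median of 0.17. Atf4, its central transcription factor, read 7.77, 7.84, 8.09, 7.93 and 7.58 in WT and 8.92, 8.49, 7.98, 8.79 and 8.83 in Mcl1(L-/-), or 0.76 (SE 0.17, adjusted p = 0.0118). Only replicate 3 lay within the WT range, and the list had 2 calls without replicate 2 or 5. Of 25 p53 targets 2 rose (8%, against 4.99% of all probe sets), Sesn1 (1.75 (SE 0.38, adjusted p = 0.00947)) and Mdm2 (0.40 (SE 0.11, adjusted p = 0.0343)). Sesn1 read 7.76, 7.90, 5.59, 5.74 and 8.68 in Mcl1(L-/-) against 5.36, 5.36, 5.43, 5.16 and 5.6 in WT, with replicates 1, 2 and 5 highest. Mdm2 lost its call under 12 of 30 alternatives, and the list had 1 call without Mcl1(L-/-) replicate 1, 2 or 5 or WT replicate 1, 3 or 4. Autophagy and lysosome genes gave 5 calls of 27 (18.5%), all higher, and the antioxidant list 3 of 28 (10.7%), Gpx3 (1.23), Hmox1 (1.20) and Srxn1. Interferon response (1 of 32) and cell cycle (1 of 32) were each at 3.12%, under the share of all probe sets.

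Several output genes of the circadian clock fell. Of 18 clock genes 4 fell and 1 rose (27.8%, against 4.99% of all probe sets). The list had 3 calls without Mcl1(L-/-) replicate 1, 2 or 5 or WT replicate 1. Dbp, a PAR bZIP factor that the clock drives, read 9.47, 9.04, 9.0, 9.0 and 9.12 in WT and 6.36, 6.52, 9.01, 8.10 and 6.18 in Mcl1(L-/-), a difference of -1.89 (SE 0.35, adjusted p = 0.00329). Replicate 3 was at the WT level, replicate 4 between, and replicates 1, 2 and 5 far below. Per3, a period gene, followed the same order, at 3.86, 3.27, 5.49, 4.42 and 4.0 in Mcl1(L-/-) and 5.74, 5.71, 5.41, 5.86 and 5.48 in WT, or -1.43 (SE 0.26, adjusted p = 0.00312). The Dbp relatives Tef (-0.65) and Hlf (-0.53) fell, and Arntl, which encodes BMAL1, rose by 0.89 (SE 0.24, adjusted p = 0.0321). The labels give no time of death. Arntl and Hlf lost their calls under several alternatives.

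PAR bZIP factors bind TTATGTAA, and Per3 is shown as a called gene that holds it. The motif was present in 9 of 278 genes called lower (3.24%), in 0.988% of measured genes and in 0.938% of all promoters. The 9 genes were Apol7a, Ces1b, Ces1e, Ces1g, Olfr675, Per3, Ugt2b1, Wnt5b and Zscan26. In the 250 bases before the Per3 start (GRCm38.p6, chr4:151044666-151044915, - strand) the motif, on either strand, is in capitals at -205 and -158.
Per3: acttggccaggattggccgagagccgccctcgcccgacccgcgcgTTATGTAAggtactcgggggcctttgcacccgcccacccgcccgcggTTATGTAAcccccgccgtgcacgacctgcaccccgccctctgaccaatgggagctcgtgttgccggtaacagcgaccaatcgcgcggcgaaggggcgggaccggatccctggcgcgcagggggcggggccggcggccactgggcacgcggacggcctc

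Genes that control glycogen and glucose differed strongly in single members. Ppp1r3c and Ppp1r3b, which encode glycogen-targeting subunits of protein phosphatase, differed by -1.92 (SE 0.32, adjusted p = 0.00174) and -1.79 (SE 0.37, adjusted p = 0.00638). Ppp1r3c read 5.06, 4.91, 6.78, 5.80 and 4.90 in Mcl1(L-/-) and 8.17, 7.14, 6.90, 8.23 and 6.6 in WT, with replicate 3 within the WT range. Gys2, the liver glycogen synthase, rose by 0.49 (SE 0.13, adjusted p = 0.0287). Slc2a2, the glucose transporter GLUT2, fell, at -0.98 (SE 0.23, adjusted p = 0.0158). It was the 1 call of 17 gluconeogenesis genes (5.88%, near the 4.99% of all probe sets). The glycogen list had 3 calls of 13 (23.1%), and its remaining 10 genes were not called.

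Ghr, the growth hormone receptor, read 10.28, 10.30, 9.98, 9.95 and 9.95 in WT and 9.49, 8.86, 9.80, 9.32 and 9.12 in Mcl1(L-/-), with no overlap and a difference of -0.77 (SE 0.13, adjusted p = 0.002). Of 23 genes of the growth hormone and IGF axis 5 were called (21.7%, against 4.99% of all probe sets). Keg1 (-1.15) and C8b also fell, and Socs2 (1.69) and Igfbp2 (0.59) rose. Leaving out 1 fasted array at a time gave 2 to 10 calls, fewest without Mcl1(L-/-) replicate 5. Keg1 and Socs2 lost their calls under many of the alternatives tried. Among acute phase genes 2 of 28 fell (7.14%, near the 4.99% of all probe sets), Saa4 (-1.73 (SE 0.30, adjusted p = 0.00242)) and the fibrinogen gene Fga (-0.47). The median of that list was 0.03, with 15 differences above 0 and 13 below. Complement and coagulation gave 3 lower, including Mbl2 (-0.72), and 2 higher, including Pros1, protein S (1.13 (SE 0.18, adjusted p = 0.00164)), of 33 (15.2%), and 3 calls without Mcl1(L-/-) replicate 5. In the glutathione S-transferase and sulfotransferase list 5 of 24 were called (20.8%). Of these 4 fell, including Gstt1 (-0.98) and Gstt3 (-1.19), and Sult1e1, estrogen sulfotransferase, rose. Sult1e1 read 3.28, 4.26, 5.04, 7.39 and 3.21 in WT and 7.31, 6.94, 6.42, 7.06 and 6.83 in Mcl1(L-/-), where WT replicate 4 exceeded every Mcl1(L-/-) array (2.27 (SE 0.47, adjusted p = 0.00675)).

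Several Kupffer cell markers were higher in fasted Mcl1(L-/-) than in fasted WT livers. Of 15 measured markers of these resident liver macrophages 7 were called higher and 0 lower (46.7%, against 4.99% of all probe sets), with a median of 0.68. Fasting moved the list by a median of -0.59 in WT livers and -0.12 in Mcl1(L-/-) livers. In the fed state the genotype median was 0.07. Vsig4, a complement receptor, read 5.46, 4.99, 5.23, 4.95 and 5.71 in WT and 5.98, 6.44, 6.33, 7.03 and 6.67 in Mcl1(L-/-). Every Mcl1(L-/-) array exceeded WT, with a difference of 1.22 (SE 0.16, adjusted p = 0.000146). Hmox1, heme oxygenase (1.20), Lyz2, lysozyme (0.95), the C1q genes C1qc (0.79) and C1qa (0.70), the hemoglobin scavenger receptor Cd163 (0.72) and the lectin Clec4f (0.56) were also higher. Timd4 (0.03), Folr2 (0.31) and Adgre1 (0.26) were not called, and Slc40a1, the iron exporter, stood at -0.91 (adjusted p = 0.0551). Outside the list and named after their values were seen, the lectin genes Mrc1 (0.56 (SE 0.13, adjusted p = 0.0134)) and Fcna (0.84 (SE 0.16, adjusted p = 0.0035)) were higher. The log2 of the summed linear signal of the list was 9.42 to 9.66 on fasted WT arrays and 9.61 to 10.50 on fasted Mcl1(L-/-) arrays, with fed WT arrays at 9.93 to 10.28. The fasted ranges overlapped, and the highest fasted Mcl1(L-/-) array lay above the fed WT range. Replicates 4 and 5 were the highest arrays of the list. Leaving out 1 fasted array at a time gave 3 to 10 calls, fewest without Mcl1(L-/-) replicate 5.

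Of 18 hepatocyte genes 3 fell (16.7%, against 4.99% of all probe sets), the lectin receptor subunit Asgr2 (-0.61), the transcription factor Cebpa (-0.59) and Fga, while Alb differed by 0.01 (SE 0.08). The hepatocyte sum was 15.62 to 15.67 in fasted WT and 15.56 to 15.62 in fasted Mcl1(L-/-) on the same log2 scale. The highest signal on any array, 12.56, was that of Alb, and the brightest genes weigh most in such a sum. Whether the array can show a change at that level was not tested. Of 14 pericentral hepatocyte genes 2 fell (14.3%), Cyp1a2 (-0.88, a call lost under 17 of 30 alternatives) and Lgr5 (-0.68), and of 12 periportal ones 1 fell (8.33%), Cyp2f2 (-0.69). Lymphocyte (15 genes), exocrine pancreas (13) and red cell and platelet lists (7) had 0 calls by limma or the ordinary model. They had 2, 1 and 2 genes with an unadjusted p under 0.05, against 4065 of all 22206 probe sets. Some lists had a called rise of 1 gene each. These were sinusoidal endothelium (Rspo3, 1.26, 1 of 18 genes), stellate cells (Dcn, decorin, 0.76, 1 of 21) and cholangiocytes and progenitors (Krt18, 0.80, 1 of 12). The same held for neutrophils (Retnlg, 1.25, 1 of 12) and recruited myeloid cells (Cd9, 1.13, 1 of 16). Their shares, from 4.76% to 8.33%, lay near the 4.99% of all probe sets. The median was 0.29 for sinusoidal endothelium, with 14 of 18 differences above 0, and -0.02 to 0.14 for the others. Without Mcl1(L-/-) replicate 3 sinusoidal endothelium had 4 calls, all higher, and the others had 0 to 2. Retnlg lost its call under 18 of 30 alternatives. Of 9 adipocyte genes 3 were called (33.3%), Cidec and Fabp4 higher and Car3 lower, while Adipoq (0.05) and Plin1 (-0.08) were not called, and the adipocyte sum was 8.13 to 9.16 in fasted WT and 8.45 to 9.82 in fasted Mcl1(L-/-). Replicate 1 of WT had pancreatic Amy2a5 at 6.42 against at most 3.87 on the others.

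**Figure D3:**
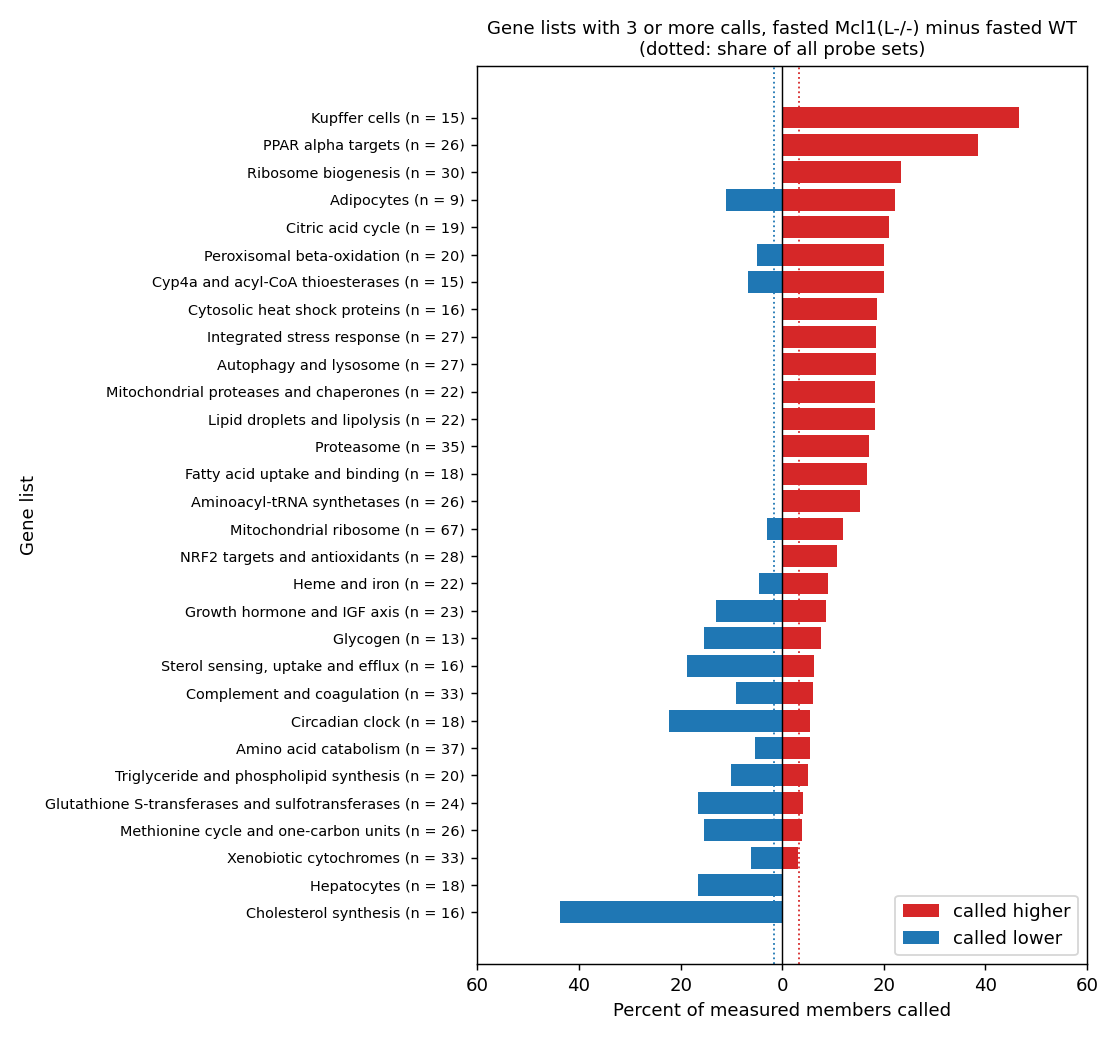
Percent of measured members called higher (right, red) and lower (left, blue) for the 30 of 65 gene lists with 3 or more calls; dotted lines mark the 3.32% and 1.67% of all probe sets. Kupffer cell genes (46.7%) and PPAR alpha targets (38.5%) lead the rises and cholesterol synthesis (43.8%) the falls.

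Fed livers, which share no arrays with the fasted comparison, had far fewer probe sets called by genotype. Only 8 probe sets (0.0360%) were called, Asic5, Mcl1, Mme, Selenbp2, Trim2, Insc, Mad2l1 and Mmp12. Of these, 3 (Asic5, Mcl1 and Mme) were also called in fasted livers, which is 37.5% of the fed calls and 0.271% of the fasted calls. At an unadjusted p under 0.05 the fed and fasted counts were 1429 and 4065. Among the 1109 fasted calls 711 (64.1%) had the same sign in fed livers, against 52.97% of all probe sets. Their median fed difference was 0.07 for those called higher and -0.07 for those called lower, where the fasted medians were 0.63 and -0.65. These probe sets and their directions were chosen by the fasted difference, which tends to enlarge the fasted medians and not the fed ones. The contrast of these medians therefore cannot measure how much smaller the fed difference was.

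The difference between the fasted and the fed genotype effect was tested directly. It was called for 30 probe sets (0.135%), of which 27 were also called in fasted livers. Among the genes described above these included Cidec, whose fed difference was 0.05 and whose fasted minus fed difference was 2.74 (adjusted p = 0.022). Rab30 (3.04), Nlrp12 (2.02), Vsig4 (1.26), Timm17a (0.88) and Tbc1d15, a regulator of Rab7 in mitophagy (1.15) had the more positive genotype difference in fasted livers. For Fdft1 (-1.22), Apol9a (-1.38) and Hsd3b2 (-2.77) the fasted difference was the lower one. Hsd3b2 read 8.05, 7.75, 7.86, 8.13 and 8.06 in fed WT and 8.72, 8.62, 8.44, 8.88 and 8.90 in fed Mcl1(L-/-). In fasted WT it read 7.12, 7.09, 6.97, 7.10 and 6.28 and in fasted Mcl1(L-/-) 4.78, 4.32, 5.86, 5.39 and 4.06, so Mcl1(L-/-) was above WT when fed and below when fasted. For Mcl1 the test did not pass the threshold (0.20, SE 0.16, adjusted p = 0.706). The count depended on single arrays, from 9 without WT replicate 2 of the fasted group to 331 without fasted Mcl1(L-/-) replicate 3.

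**Figure D4:**
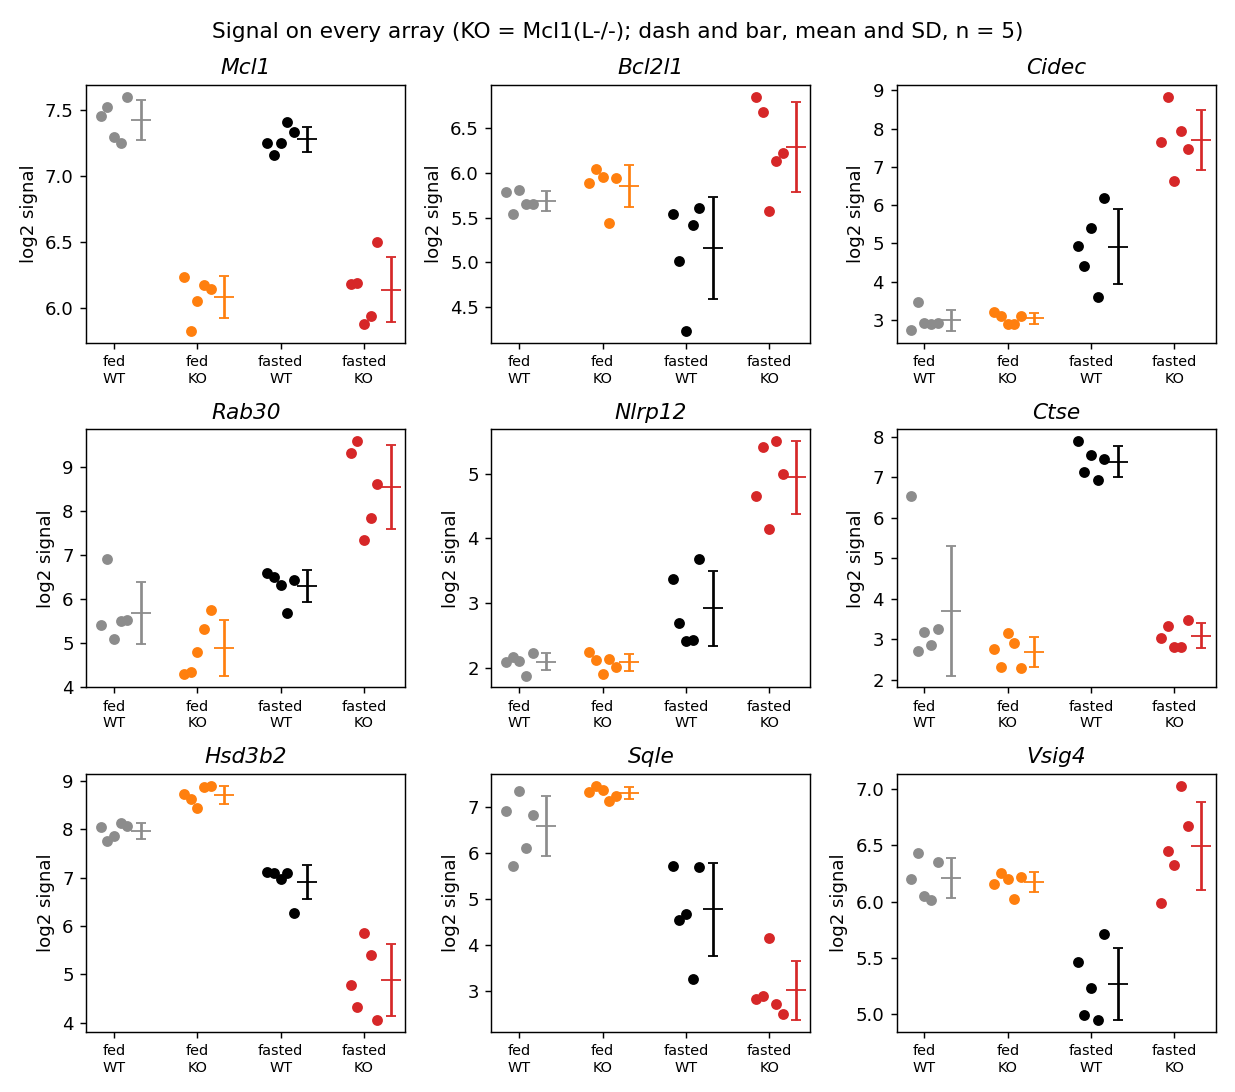
Log2 signal of 9 genes (vertical axes) on all 20 arrays in 4 groups; points are arrays, the dash and bar give mean and SD (n = 5), and KO stands for Mcl1(L-/-). Mcl1 is lower in Mcl1(L-/-) fed and fasted, Cidec, Rab30 and Nlrp12 are highest in fasted Mcl1(L-/-), and Ctse is high in fasted WT and in fed WT replicate 1.

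**Figure D5:**
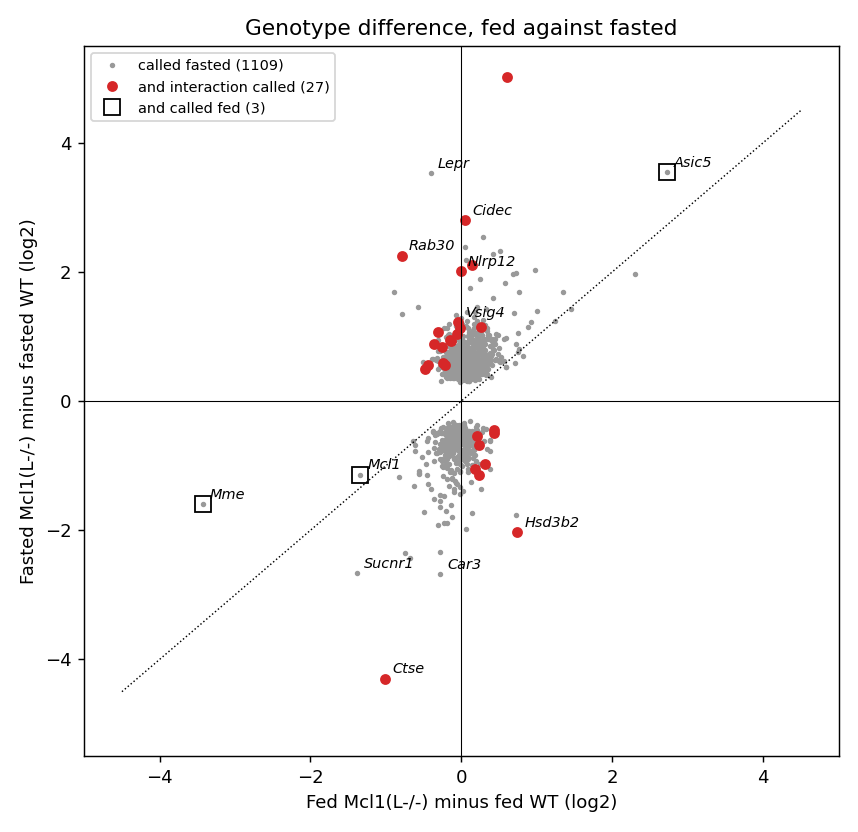
Genotype difference in fed livers (horizontal, log2) and in fasted livers (vertical, log2) for the 1109 probe sets called in fasted livers; red marks the 27 with a called difference between states, squares the 3 called in both, and the dotted line equality. Most points lie near 0 on the fed axis, while Asic5, Mme and Mcl1 lie far from it.

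Some genes varied widely among fasted Mcl1(L-/-) livers without a called difference. Inhbe, a hepatokine gene, read 4.56, 5.84, 6.76, 7.30 and 3.64 in Mcl1(L-/-) and 7.14, 5.96, 6.28, 4.54 and 6.48 in WT. Noct, a clock-controlled phosphatase, read 5.99, 3.10, 6.55, 6.62 and 3.24 in Mcl1(L-/-) and 6.41, 6.85, 7.15, 7.15 and 5.93 in WT (-1.60 (SE 0.54, adjusted p = 0.0905)), with replicates 2 and 5 low. Slc3a1 (-1.17 (SE 0.49, adjusted p = 0.186)) and Kcnk5 (-0.98 (SE 0.44, adjusted p = 0.224)) were also lowest on replicates 2 and 5. Tff3, Hsd17b6 and Rgs16 spread over several log2 units, with differences of 0.35, 0.50 and 0.20. Over the 1109 called probe sets the median SD was 0.283 in Mcl1(L-/-) and 0.216 in WT, and the SD was larger in Mcl1(L-/-) for 773. Over all 22206 probe sets the medians were 0.211 and 0.202, and the SD was larger in Mcl1(L-/-) for 12241.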

How the data were processed

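Gene expression was measured in 20 mouse livers, 1 Affymetrix array each, 5 per group. Per the submitters' processing notes, the authors made the deposited log2 signals with RMA and Partek 7.0. The log base is not stated in the table and was read as log2. Because RMA equalises the arrays' distributions, a change common to most RNAs cannot be seen. Precision is set by the 5 arrays per group. Of 22206 probe sets 19572 carried 1 gene symbol and 2634 none. The probe set with the highest mean stood for a gene with several.

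limma 3.58.1 (R 4.3.3) with eBayes moderation fitted 4 group means to the 20 arrays. P-values were adjusted over all probe sets. The fit was tested on simulated data. Figures were drawn with matplotlib in Python. Named genes were Mcl1, the 12 largest rises and falls among calls whose groups did not overlap (no predicted gene models or unnamed probe sets), up to 2 called members per direction of each of 65 gene lists (or 1 uncalled), and 8 genes of largest spread. Others were named after their values were seen. Members, rules and lists were chosen with earlier results of these data known. Of 1412 list symbols 1299 were measured; the others are not analysed here. Replicate numbers were read as names only. Same-numbered arrays of the 2 fasted groups did not deviate together (r from -0.144 to -0.0622), and the fed groups were not checked for this. Alternatives covered moderation, weights, scaling, dim probe sets, the replicate block and each array left out. Promoters came from RefSeq (GRCm38.p6).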

Additional observations from a re-analysis of the deposited data

Results flagged for a closer look

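Among 162 genes examined in the 2 fasted groups, 18 of 324 gene and group pairs held 1 array far from the other 4 of its group, by a gap past Dixon's critical value. Chance gives about 1 in 20 such pairs. The low arrays were Psmd4 at 7.42 on fasted WT replicate 4 (others 7.97 to 8.18), Ahsa1 at 6.99 on fasted Mcl1(L-/-) replicate 3 (others 7.30 to 7.41), Hadhb at 9.22 on fasted WT replicate 4 (others 9.57 to 9.68), Rgs16 at 6.90 on fasted WT replicate 2 (others 8.73 to 9.44), Haao at 8.50 on fasted WT replicate 5 (others 8.87 to 9.01), Haao at 7.98 on fasted Mcl1(L-/-) replicate 2 (others 8.44 to 8.63), Cyp2f2 at 9.17 on fasted Mcl1(L-/-) replicate 2 (others 9.85 to 10.11), Hsd3b2 at 6.28 on fasted WT replicate 5 (others 6.97 to 7.12), Sucnr1 at 6.72 on fasted WT replicate 4 (others 7.60 to 7.84) and Msmo1 at 4.24 on fasted WT replicate 4 (others 6.01 to 6.08). The high arrays were Hspb1 at 5.42 on fasted WT replicate 5 (others 4.11 to 4.40), Yme1l1 at 7.67 on fasted Mcl1(L-/-) replicate 1 (others 7.28 to 7.4), Alad at 7.59 on fasted WT replicate 1 (others 7.25 to 7.33), Amy2a5 at 6.42 on fasted WT replicate 1 (others 3.58 to 3.87), Cyp1a2 at 8.67 on fasted WT replicate 1 (others 7.45 to 7.73), Sqle at 4.14 on fasted Mcl1(L-/-) replicate 3 (others 2.51 to 2.89), Dbp at 9.47 on fasted WT replicate 1 (others 9.0 to 9.12) and Tbc1d15 at 5.78 on fasted WT replicate 5 (others 5.08 to 5.21). The log2 signals are given.

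The genotype difference differed between fasted and fed livers, by the interaction term of the limma model, for 14 named genes. It was more positive in fasted livers for Cidec (2.74), Rab30 (3.04), Nlrp12 (2.02), Vsig4 (1.26), Gys2 (0.98), Gm4788 (4.41), Timm17a (0.88), Tbc1d15 (1.15), Mrc1 (1.0) and Fcna (1.09). It was more negative in fasted livers for Apol9a (-1.38), Hsd3b2 (-2.77), Ctse (-3.29) and Fdft1 (-1.22). For Gm4788 and Ctse fed WT replicate 1 lay apart from the other fed WT arrays.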

How the results depend on the processing

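Mcl1 kept its direction and call under every alternative tried. The 1109 fasted calls (738 higher, 371 lower) became 399 (290 and 109) with only the 10 fasted arrays, 700 (490 and 210) with an ordinary linear model, 158 (94 and 64) at 2-fold or more, and 1989 (1085 and 904) without fasted Mcl1(L-/-) arrays 3 and 4, added after the data were seen. The 8 fed calls became 15 with trend and robust moderation, 26 with array weights, 20 with 1 variance per group and 4 with the ordinary model. The 30 calls of the fasted minus fed difference became 55 with array weights, 58 among probe sets with a mean of at least 4 in 1 group and 3 with the ordinary model. Leaving out each array gave 497 to 1707 fasted calls, 342 to 1045 higher and 155 to 662 lower, 7 to 16 fed calls and 9 to 331 calls of the fasted minus fed difference. With the replicate block, whose numbers did not pair the fasted arrays, there were 924 (613 and 311), 8 and 20 calls. Of 30 lists with 3 or more calls, 25 lost more than 1 in 3 of them without some fasted array. Of 148 named genes called, 70 kept the call throughout and 78 lost it under at least 1 alternative. Uncalled genes changed sign when an array was left out: Rgs16 ranged over -0.21 to 0.84, Hsd17b6 over -0.0579 to 0.906, Tff3 over -0.37 to 1.22 and Inhbe over -0.881 to 0.0335. Without arrays 3 and 4 Hsd17b6 was -0.37 and Tff3 -0.81. Apart from the smaller set of arrays or probe sets in some, the cause was not tested.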
